A study of Homo sapiens with 8 samples.

Results

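HEL cells, a human erythroleukaemia line that carries an activating JAK2 mutation, were exposed to the kinase inhibitor CEP701 or to DMSO, its vehicle, and their transcripts were measured on oligonucleotide arrays. The comparison uses 4 of the 8 arrays of the series, chosen by title and treatment label. In the treated group, 2 arrays came from cells kept in CEP701 at 0.5 µM for 16 h, and in the control group 2 arrays came from cells kept in DMSO for 16 h. The other 4 arrays, 2 with a stable lentiviral shRNA against PRMT5 and 2 with a scramble shRNA, entered only the estimate of the spread between arrays. All cells were grown in RPMI medium with serum, and the drug arm has a single line, dose and time. It is not stated whether arrays of a group came from separate cultures, so a p-value here covers only the spread between the arrays fitted. That spread may be technical. It is pooled over all 8 arrays, and the titles of the 2 arrays of each shRNA group end in different numbers. A gene whose shRNA arrays differ can therefore miss the threshold even where its drug-arm arrays are close. Few arrays per group also limit how precise any value can be.

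CEP701, or lestaurtinib, is an indolocarbazole that competes with ATP and inhibits JAK2, FLT3 and TRK kinases. JAK2 passes the signals of the erythropoietin and thrombopoietin receptors to STAT factors, and in parallel to the RAS-ERK and PI3K-AKT-mTOR pathways. Growth signals of this kind are known to raise amino acid uptake, tRNA charging, nucleotide synthesis and ribosome production. The account below follows these families, from amino acid supply to receptors and chromatin, rather than the direct STAT and ERK targets.

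A gene was tested where its signal was above 60 on at least 2 of the 4 arrays, which kept 12487 of the 19775 genes named on the array. Signals are the deposited linear values. A log2 change is the CEP701 mean minus the DMSO mean of log2(signal + 10), its error is the standard error of the fit, and a gene is said to rise or fall only where limma gave a Benjamini-Hochberg adjusted p below 0.05 over all 12487 genes. In this bulk RNA, fewer cells of a kind and less RNA per cell cannot be told apart.

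Genes of the erythroid and megakaryocyte lineages were present in both groups. GATA1, the master regulator of red cells and platelets, was at 1794 and 2023 with DMSO and 2121 and 2196 with CEP701. The erythroid genes ALAS2 and AHSP lay nearer the minimum. ALAS2 was at 26.0 and 144 with DMSO and 17.4 and 111 with CEP701, and AHSP at 57.2 and 87.5 against 71.4 and 74.2. ITGA2B, a platelet integrin, was at 6835 and 6645 against 8165 and 8069, so its groups did not overlap but its log2 change was only 0.27. PF4, a platelet chemokine, was at 1725 and 1980 against 1084 and 1054 (-0.78), and ITGB3, the partner of ITGA2B, at 368 and 376 against 221 and 294 (-0.53), and neither passed. CD14, MPO, ELANE, EPCAM and COL3A1, which mark monocytes, granulocytes, epithelium and fibroblasts, did not pass the filter, with MPO above the minimum on 1 array, at 63.5. COL1A1, another fibroblast marker, passed it, at 415 and 476 with DMSO and 369 and 338 with CEP701. The lymphocyte genes CD3E and MS4A1 passed it near the minimum. CD3E was at 78.6 and 73.8 against 55.2 and 59.3, and MS4A1 at 55.3 and 30.4 against 93.3 and 71.6. LYZ, a lysozyme of myeloid cells, was at 5293 and 5252 with DMSO and 8863 and 7656 with CEP701. The summed signal of 21 erythroid markers, 19 of them above the minimum, was 113466 and 124826 with DMSO and 126998 and 121402 with CEP701, and that of 19 megakaryocyte markers, 17 above the minimum, was 50329 and 51311 against 62720 and 61933. THBS1 alone, which counts among them, went from 948 and 876 to 16268 and 17122, more than the rise of the sum. Of the 17, 12 were lower on both CEP701 arrays, against 3435 of all 12487 genes. The median of the 17 lay 0.47 below that of all genes. The sum of 18 monocyte and granulocyte markers (7 above the minimum) was 6316 and 6486 against 10011 and 8958, that of 17 lymphocyte markers (10 above) 2890 and 3215 against 3101 and 2937, and that of 12 epithelial and fibroblast markers (4 above) 2059 and 2223 against 1979 and 2166. LYZ made up most of the monocyte and granulocyte difference: 4 of those 7 genes had positive and 3 negative values, and their median lay 0.05 above that of all genes (0.10 below it under quantile normalization). Their part in the results was not tested. The drug's own targets gave no call: JAK2 was at 1872 and 1744 with DMSO and 2200 and 2921 with CEP701 (log2 change 0.49 ± 0.20, adjusted p = 0.161), and FLT3 stayed below the minimum on all 4 arrays, at 6.5 to 43.2.

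Of the 12487 genes, 894 passed (7.16%), with 574 higher (4.60%) and 320 lower (2.56%) with CEP701, and the median log2 change of all genes was 0.09. Of the rises 326 were at least 2-fold and 45 at least 4-fold, and of the falls 130 and 14. A family's share of calls is to be read against the 7.16%, 4.60% and 2.56% of all genes. Over all 12487 genes, 4681 were higher and 3435 lower on both CEP701 arrays than on both DMSO arrays. All 894 called genes are among these, so separate groups add no support to a call. The 2 arrays of a group correlated at 0.982 (CEP701) and 0.981 (DMSO), and arrays of different groups at 0.957 to 0.961. The split between the directions changed with the scaling of the arrays: the calls were 255 higher and 640 lower when arrays were scaled to their median, 316 and 185 under quantile normalization, and 94 and 1116 when scaled to the poly-A spike controls. These scalings put the median of all genes at -0.13, 0.02 and -0.41, so family medians are given below relative to the median of all genes, where a common shift drops out. Far fewer genes passed with 1 array of the arm left out, which leaves a group of 1 array and fewer degrees of freedom: 32 rises and 14 falls were left without DMSO replicate 1, 13 and 7 without DMSO replicate 2, 1 and 5 without CEP701 replicate 1, and 9 and 8 without CEP701 replicate 2. Of 219 called genes named by the rule in the methods, 218 kept their direction under the 3 scalings, and 22, 16, 6 and 14 kept their call without those arrays in that order. The groups of all 894 called genes do not overlap, so the direction of these 219 could not change with 1 array left out. For 216 of the 219 the log2 change stayed within 1.5 times of that on all arrays. The exceptions were S1PR1, COL6A1 and HBD. RDH10, CD24, DUSP6, ETV5 and PIM1 are the 5 that passed in each of the 20 alternatives. The 5' to 3' signal ratio of actin, a sign of RNA integrity, was 0.199 and 0.198 with DMSO and 0.116 and 0.161 with CEP701. That of GAPDH was 0.882 and 0.809 against 0.787 and 0.856, where the groups overlap. The mean log2 signal of the poly-A controls was 8.98 and 9.18 with DMSO against 9.70 and 9.45 with CEP701. Their part in the results was not tested.

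**Figure D1:**
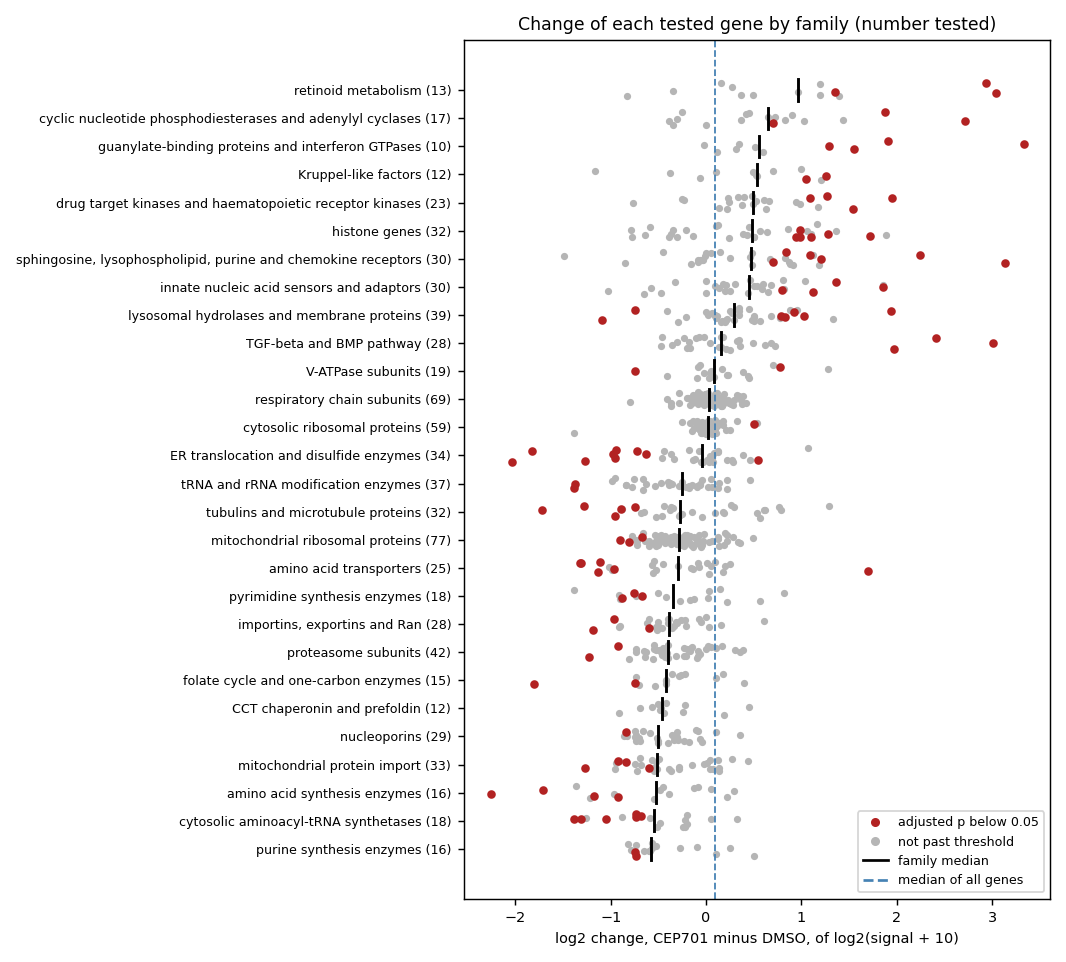
The log2 change of every tested gene (x axis, CEP701 minus DMSO of log2(signal + 10)) is plotted as a point for 28 gene families, with red for an adjusted p below 0.05, a black bar at the family median and a dashed line at 0.09, the median of all genes. Families of amino acid, nucleotide and protein synthesis lie to the left of the line, ribosomal and respiratory chain proteins lie near it, and retinoid, receptor, interferon GTPase and histone genes lie to the right.

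Members of the families that supply amino acids and charge tRNAs fell with CEP701. Of 16 enzymes that make amino acids, 4 fell (25%, against 2.56% of all genes), and their median lay 0.61 below that of all genes. PSAT1, an aminotransferase of serine synthesis, read 6606 and 5648 with DMSO and 1406 and 1148 with CEP701, a log2 change of -2.26 ± 0.31 (adjusted p = 0.00721). Its groups were far apart, and both of its probe sets were lower with the drug. PHGDH, which commits glycolytic carbon to serine, went from 1354 and 1545 to 683 and 590 (-1.18, adjusted p = 0.0418). ASNS, which makes asparagine, went from 1981 and 2030 to 728 and 504 (-1.71, adjusted p = 0.00612). BCAT1, which transfers amino groups of leucine, isoleucine and valine, went from 11207 and 11164 to 5907 and 5913 (-0.92, adjusted p = 0.00603). The groups did not overlap for these 4 genes, as for all 894 that passed. The highest value of the family belonged to OAT, an ornithine aminotransferase, at 0.29, which did not pass.

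Among cytosolic aminoacyl-tRNA synthetases, the enzymes that load amino acids onto tRNAs, 6 of 18 fell (33.3%) and the family median lay 0.64 below that of all genes, or 0.59 to 0.68 below it with any one array of the arm left out. WARS1, for tryptophan, read 1834 and 1976 with DMSO and 857 and 607 with CEP701 (-1.39, adjusted p = 0.0137). GARS1, for glycine, read 8839 and 10031 against 4119 and 3490 (-1.31, adjusted p = 0.0134). IARS1, for isoleucine, read 12132 and 13694 against 6357 and 6109 (-1.05, adjusted p = 0.0424). In each of the 3, both drug arrays lay far below both control arrays. By their brightest probe sets YARS1 (-0.74), CARS1 (-0.73) and AARS1 (-0.68), for tyrosine, cysteine and alanine, fell less. A second probe set of YARS1 stood at 0.04, and the 4 probe sets of CARS1 ran from -1.95 to -0.73. AARS1 was named after its values were seen. RARS1, for arginine, was the highest at 0.32 and did not pass. The 15 mitochondrial synthetases gave a different picture: limma called 0 of them, 1 had an unadjusted p below 0.05, and their values ran from -0.52 (NARS2) to 0.57 (PARS2), with a median 0.13 below that of all genes. A fit on the 4 arrays alone called 3 of the 15, with 1 higher and 2 lower.

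Transporters that bring amino acids into the cell split by type. Of 25 tested, 5 fell (20%) and 1 rose. SLC1A5, which carries glutamine, read 1233 and 1116 with DMSO and 468 and 459 with CEP701 (-1.32, adjusted p = 0.00888). SLC7A5, the large carrier of leucine and other bulky amino acids, read 2587 and 3048 against 1309 and 1283 (-1.11, adjusted p = 0.00773). SLC36A4 (-1.31), SLC38A1 (-1.13) and SLC7A1 (-0.97), the carriers of tryptophan and proline, of glutamine and of arginine and lysine, fell as well. SLC7A7, which exports cationic amino acids in exchange for neutral ones, went the other way, from 207 and 155 to 555 and 655 (1.70 ± 0.27, adjusted p = 0.0121). The family median lay 0.37 below that of all genes.

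ATF4, a factor that switches on amino acid and stress genes, is known to bind an element spelled TTGCATCA with C/EBP partners. RefSeq promoters of GRCh38.p14, from 250 bases before to 50 after each start, were matched for 10171 of the 12487 tested genes, and the letters were searched on both strands. They stood in 5 of 267 promoters of genes that fell (1.87%), in 3 of 468 of genes that rose (0.641%), in 56 of the 10171 (0.551%) and in 252 of all 27305 promoters in the table (0.923%). The 5 that fell are AARS1, BCAT1, CARS1, IARS1 and IL21R, and 4 of these 5 belong to the families above. The stretches around the match are shown for the members that carry it before the start, on the gene's strand, 5' to 3', with the match in capitals. A match describes letters and is not a shown site. They lie at chr16:70289646-70289733 (AARS1, minus strand), chr12:24949102-24949189 (BCAT1, minus strand) and chr9:92293698-92293750 (IARS1, minus strand, ending at the start).
AARS1: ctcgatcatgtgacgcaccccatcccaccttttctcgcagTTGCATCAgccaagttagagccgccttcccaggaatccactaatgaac
BCAT1: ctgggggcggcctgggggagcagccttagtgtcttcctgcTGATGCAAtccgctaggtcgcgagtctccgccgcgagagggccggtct
IARS1: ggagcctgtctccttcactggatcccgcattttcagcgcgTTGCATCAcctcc
In BCAT1 the letters read on the opposite strand, and in AARS1, BCAT1 and IARS1 they begin at positions -187, -48 and -13 from the annotated start.

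**Figure D2:**
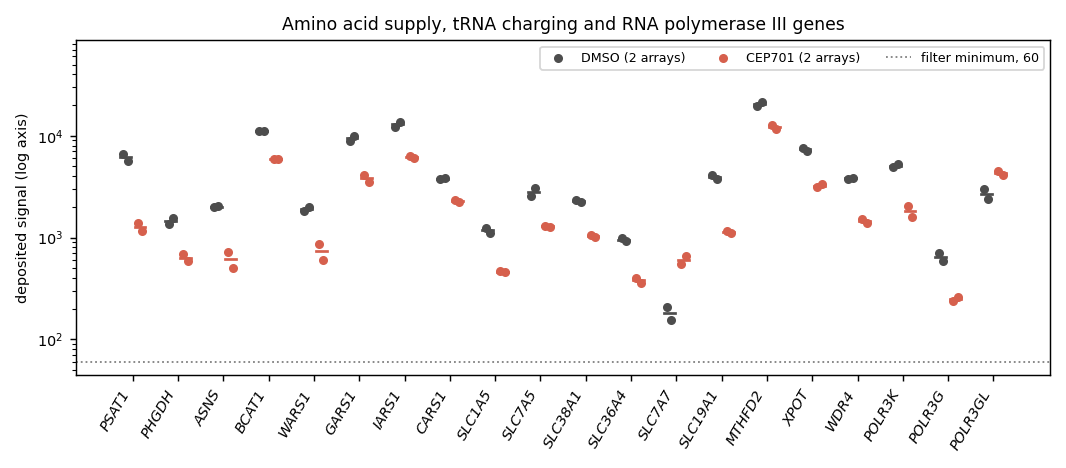
Deposited signal on each array (y axis, log scale) is plotted for 20 genes of amino acid supply, tRNA charging, folate and RNA polymerase III, with grey points for the 2 DMSO arrays, red points for the 2 CEP701 arrays and a short bar at each group mean. SLC7A7 and POLR3GL are higher with CEP701, the other 18 are lower, and in no gene do the groups overlap, as for every called gene.

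Folate and nucleotide synthesis, which feed DNA and RNA, showed the same direction with fewer calls. SLC19A1, which carries folate into the cell, fell from 4150 and 3751 to 1160 and 1100 (-1.80 ± 0.39, adjusted p = 0.0309), and all 5 of its probe sets above the minimum were lower with the drug. MTHFD2, the mitochondrial enzyme that makes one-carbon units, fell from 19704 and 21406 to 12850 and 11543 (-0.75, adjusted p = 0.0281). They are the 2 of 15 folate and one-carbon genes that passed, and that family's median lay 0.51 below that of all genes. Of 16 purine synthesis enzymes, HPRT1, which salvages purines, fell by 0.75 on the log2 scale and PRPS2, which makes the ribose phosphate precursor, fell by 0.74. The purine median was the lowest of all lists here, 0.67 below that of all genes, yet 0 of its genes passed under quantile normalization, where the median stayed 0.55 below. Of 18 pyrimidine enzymes 3 fell: RRM2, a ribonucleotide reductase subunit (-0.76), UMPS, which completes UMP synthesis (-0.88), and DCTD, a deaminase that supplies dUMP (-0.67). For UMPS the probe sets disagreed, from -1.12 to 0.49. CTPS1, the CTP synthase of proliferating blood cells, stood lowest of the family at -1.38, with 3601 and 3337 against 1314 and 1334, but did not pass (adjusted p = 0.105). Limma on the 4 arrays alone gave CTPS1 an adjusted p of 4.12e-05. In the polyamine family, ODC1, the enzyme that starts polyamine synthesis, fell from 29615 and 29960 to 13390 and 12126 (-1.22, adjusted p = 0.0479). SAT1, which starts polyamine breakdown, rose from 1332 and 988 to 2599 and 2606 (1.17, adjusted p = 0.0423). Those were the 2 calls among 13 polyamine genes.

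The machinery that makes and decodes small RNAs changed at a few subunits. POLR1G, a subunit of RNA polymerase I, went from 1391 and 1433 to 368 and 411 (-1.83), and POLR1F, another, from 1889 and 1898 to 1310 and 1239 (-0.57). POLR3K, a core subunit of RNA polymerase III, went from 4877 and 5312 to 2036 and 1588 (-1.50, adjusted p = 0.0108). RNA polymerase III exists in forms that hold either of a pair of related subunits, and here those moved in opposite directions. POLR3G, the form typical of stem and tumour cells, went from 704 and 590 to 236 and 261 (-1.34, adjusted p = 0.0434), although a second probe set stood at 0.21. POLR3GL, the form common in differentiated cells, went from 2991 and 2412 to 4540 and 4085 (0.68, adjusted p = 0.0417). Over the 34 subunits and factors of both enzymes the median lay 0.24 below that of all genes, with 4 falls and 1 rise. The 12 core subunits of RNA polymerase II gave 0 calls by limma, 3 unadjusted p below 0.05, and a lowest value of -0.95 at POLR2D.

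Past the polymerases, XPOT, the exporter of tRNA from the nucleus, fell from 7627 and 7084 to 3128 and 3329 (-1.19, adjusted p = 0.00583). WDR4, part of an enzyme that methylates tRNA, fell from 3774 and 3835 to 1517 and 1383 (-1.39), and EMG1, which modifies ribosomal RNA, from 8431 and 8891 to 3617 and 3101 (-1.37). WDR4 and EMG1 were the 2 calls among 37 modification enzymes (5.41%, against 7.16% of all genes called and 2.56% called lower). Of 28 importins and exportins, NXT1, a factor of mRNA export (-0.97), and XPO6, the exporter of actin (-0.60), fell beside XPOT, while XPO7 stood highest at 0.61 and did not pass. Of 29 nucleoporins only NUP155 fell (-0.84). Of the 29, 23 were lower on both CEP701 arrays than on both DMSO arrays, against 3435 of all 12487 genes. The nucleoporin median lay 0.58 below that of all genes. Of 37 translation initiation factors (5.41% called), 21 were lower on both CEP701 arrays, against 3435 of all 12487 genes. Their family median lay 0.29 below that of all genes. EIF4G2, an eIF4G relative, fell (-0.51, with a second probe set at 0.19). EIF4B, which assists the helicase eIF4A, rose (0.49), although EIF4B stood at -0.01 under the poly-A scaling. The 59 cytosolic ribosomal proteins hardly moved, with a median 0.06 below that of all genes and 1 rise, RPS27L, a p53-induced relative of RPS27, at 0.50. That median had the opposite sign under quantile normalization (0.03).

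Mitochondrial families held these calls. Of 77 mitochondrial ribosomal proteins 3 fell (3.90%, against 2.56% of all genes), MRPL42 (-0.90), MRPS6 (-0.81) and MRPS5 (-0.67). Of the 77, 55 were lower on both CEP701 arrays, against 3435 of all 12487 genes, and the median lay 0.37 below that of all genes. Of 33 import factors 4 fell: TIMM8A, a chaperone of the space between the membranes (-1.27), TIMM29 of the inner membrane (-0.92), TOMM22, a receptor of the outer membrane (-0.84), and GRPEL2, a co-chaperone of the import motor (-0.60, with a second probe set at 0.56). Their median lay 0.59 below that of all genes. TIMM8A read 628 and 539 with DMSO and 210 and 264 with CEP701. Limma called 0 of 69 respiratory chain subunits, which carry electrons and make ATP, with 4 higher and 1 lower at an unadjusted p below 0.05. Their median lay within 0.05 of that of all genes and changed sign under quantile normalization, and the lowest value was -0.80 at ATP5MC1 (adjusted p = 0.130). A fit on the 4 arrays alone called 9 of the 69, with 5 higher and 4 lower. In the tricarboxylic acid cycle, IDH1 (-1.03), ACO1 (-0.81) and IDH3A (-0.70) fell among 24. IDH1, the cytosolic isocitrate dehydrogenase, also counts among 12 pentose phosphate and NADPH enzymes, of which RPE (-0.84) and RPIA (-0.76), both of the pentose phosphate pathway, fell too.

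Protein folding and disposal gave a mixed picture by compartment. In the endoplasmic reticulum, 8 of 34 translocation and disulfide genes fell (23.5%) and 1 rose. SDF2L1, a partner of the lumenal chaperones, read 1367 and 1545 with DMSO and 384 and 317 with CEP701 (-2.03 ± 0.27, adjusted p = 0.00639). CRELD2, a stress-induced disulfide protein, read 1217 and 1178 against 386 and 287 (-1.82, adjusted p = 0.00286). MANF, a secreted protein of the same stress response, read 9809 and 9415 against 4256 and 3702 (-1.27, adjusted p = 0.00403). The lowest control array of each lay more than 2 times above the highest drug array. DNAJB11 (-0.98), HYOU1 (-0.96) and CALR (-0.72), chaperones of the same lumen, fell as well, while DDOST, of the oligosaccharide transferase, rose (0.54). Yet the median of the 34 lay only 0.12 below that of all genes, and 16 members had positive values. In the cytosol limma called 0 of 12 CCT chaperonin and prefoldin genes, with 1 higher and 5 lower at an unadjusted p below 0.05, CCT6A lowest at -0.91, and a median 0.55 below that of all genes. The fit on 4 arrays alone called 1 of them higher and 8 lower. Of 42 proteasome subunits PSMD1 (-1.23) and PSMD11 (-0.92), of the base and the lid of the regulatory particle, fell. These were the only calls (4.76%, against 7.16% of all genes called and 2.56% called lower). Of the 42, 28 were lower on both CEP701 arrays, against 3435 of all 12487 genes. PSMB9, the immunoproteasome subunit, stood highest at 0.39 and did not pass.

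Fatty acid and triglyceride enzymes held calls in both directions. FASN (-0.78), ACLY (-0.53) and SCD (-0.78), which make and desaturate fatty acids, fell. AGPAT2 fell (-1.09) while its relative AGPAT1 rose (0.71), both of which build phosphatidic acid. ACACB, the mitochondrial acetyl-CoA carboxylase, rose (0.97). That made 4 falls and 2 rises among 20. AGPAT2 read 744 and 899 with DMSO and 339 and 424 with CEP701, and AGPAT1 read 1225 and 1291 against 2182 and 1938. Of 16 phospholipid enzymes limma called 0, with 1 higher and 3 lower at an unadjusted p below 0.05. The fit on 4 arrays called 2 higher and 3 lower.

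Several tubulins and junction genes fell. TUBA4A went from 10804 and 11708 to 4861 and 4407 (-1.28, adjusted p = 0.0439), and TUBB3 (-0.96), TUBB4B (-0.89) and TUBB (-0.75) fell with it. MAP1B, which stabilizes microtubules, went from 570 and 493 to 150 and 158 (-1.72). That is 5 of 32 genes, and tubulins share long stretches of sequence, so that their probe sets can share signal. TUBB1, the platelet tubulin, had the highest value at 1.29, from 500 and 532 to 1344 and 1205, but did not pass (adjusted p = 0.131) and its probe sets differed in sign. Limma on the 4 arrays alone gave TUBB1 an adjusted p of 1.93e-04. Of 15 connexins, pannexins and claudins, GJA1, the main connexin of many tissues, fell from 1414 and 1157 to 351 and 296 (-1.96, adjusted p = 0.0187), and GJB2 fell from 108 and 122 to 21.1 and 6.4 (-2.46), which is below the minimum.

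Retinoid metabolism stood at the other end of the families. Retinol is oxidized to retinal and then to retinoic acid, a hormone that steers blood cell differentiation, and 3 of the enzymes for it rose among 13 genes (23.1%, against 4.60% of all genes). RDH10, which oxidizes retinol, read 733 and 723 with DMSO and 6063 and 6033 with CEP701, a log2 change of 3.04 ± 0.21 (adjusted p = 6.88e-04). The replicates of each group were close to each other, and its 3 probe sets above the minimum gave 3.04 to 3.57. DHRS9, a second retinol dehydrogenase, read 72.4 and 83.2 against 718 and 601 (2.93, adjusted p = 0.00643). ALDH1A1, which turns retinal into retinoic acid, read 4284 and 4330 against 10947 and 10973 (1.35, adjusted p = 0.0316). The family median lay 0.87 above that of all genes, and 0.42 to 1.13 above it with 1 array of the arm left out. RDH13 was the lowest, at -0.83, and did not pass.

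Several receptors of growth factors rose. Of 23 kinase targets of the drug and haematopoietic receptors, 4 rose (17.4%). KIT, the receptor of stem cell factor, went from 6934 and 7327 to 28556 and 26450 (1.95 ± 0.39, adjusted p = 0.0242). TEK, the angiopoietin receptor, went from 194 and 219 to 593 and 642 (1.54, adjusted p = 0.0103), and IGF1R, the receptor of insulin-like growth factors, from 1846 and 1397 to 3546 and 4231 (1.27, adjusted p = 0.00768). EPOR, the erythropoietin receptor that signals through JAK2, went from 205 and 293 to 524 and 540 (1.09, adjusted p = 0.0257). In each the lower drug array exceeded the higher control array, as holds for every called rise. The median lay 0.40 above that of all genes, but its own value of 0.49 came to -0.01 under the poly-A scaling.

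Among receptors of small mediators 6 of 30 rose (20%). S1PR1, the receptor of sphingosine-1-phosphate that guides blood cells out of tissues, read 91.6 and 11.7 with DMSO and 407 and 395 with CEP701 (3.13 ± 0.65, adjusted p = 0.0265). Its DMSO arrays lie on both sides of the minimum, so the size of its change is loose. P2RX1, an ATP-gated channel of platelets, read 144 and 166 against 706 and 832 (2.24, adjusted p = 0.0199), and P2RX7, another, rose by 1.09. CYSLTR1, a leukotriene receptor (1.20), and CCR1, a chemokine receptor (0.84), rose too, and so did CX3CR1, the fractalkine receptor, by 0.70 (named after its values were seen). P2RY2, a nucleotide receptor, stood lowest at -1.49 and did not pass. Downstream, 3 of 17 phosphodiesterases and adenylyl cyclases rose, which break down or make cyclic AMP and cyclic GMP. PDE3B went from 173 and 158 to 625 and 649 (1.88, adjusted p = 0.00949), PDE7B from 22.4 and 11.6 to 125 and 210 (2.71), and ADCY7, a cyclase abundant in blood cells, from 1693 and 1483 to 2493 and 2668 (0.70). A second probe set of ADCY7 stood at -0.18. The median of these 17 lay 0.57 above that of all genes and stayed positive, at 0.16, under the poly-A scaling.

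In the TGF-beta pathway the 3 rises among 28 genes fell on a receptor and on inhibitors. SMAD7, which blocks the activated receptor, read 22.9 and 5.65 with DMSO and 169 and 178 with CEP701 (3.01, adjusted p = 0.0103). SKIL, a repressor of SMAD target genes, read 692 and 782 against 3053 and 2791 (1.97 ± 0.19, adjusted p = 0.00195), with its probe sets between 0.11 and 1.97. ACVRL1, a type I receptor of endothelium, read 11.3 and 6.87 against 69.4 and 117 (2.41). SMAD7 and ACVRL1 lay below the minimum in DMSO, so the added 10 sets the size of their changes. The median of the 28 lay only 0.07 above that of all genes. In the Notch and Wnt list of 41 (9.76% called, against 7.16% of all genes), calls went both ways. FZD7, a Wnt receptor (1.38), MAML3, a Notch co-activator (1.03), and LRP5, a Wnt co-receptor (0.99), rose, and TLE3, a co-repressor, fell (-0.77). In the PI3K and mTOR list of 48 (8.33% called), SESN3 (1.76), DDIT4 (1.09) and GAB1 (0.77) rose and TRIB3, a pseudokinase induced by ATF4, fell (-0.73). SESN3 and DDIT4 restrain mTORC1, and SESN3 read 108 and 190 against 475 and 545.

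**Figure D3:**
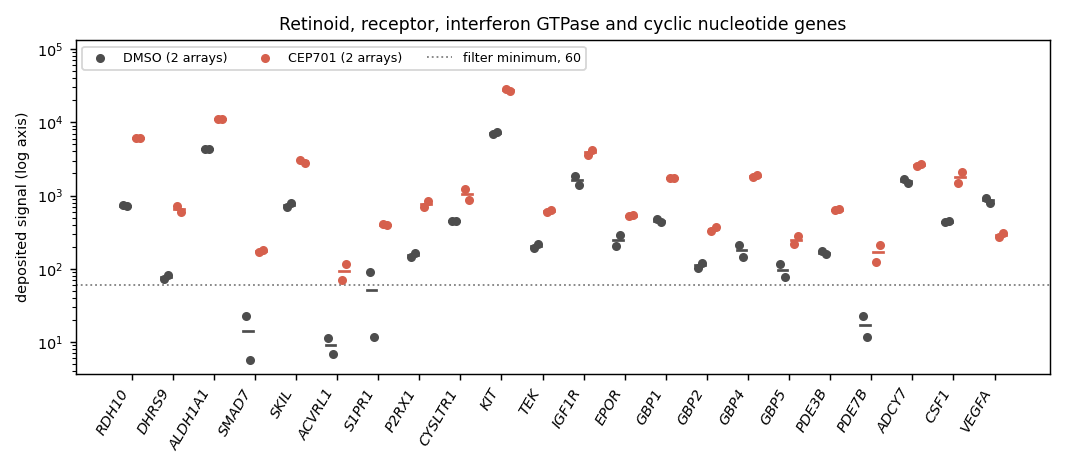
Deposited signal on each array (y axis, log scale) is plotted for 22 genes of retinoid metabolism, TGF-beta signalling, surface receptors, guanylate-binding proteins, cyclic nucleotide enzymes and cytokines, with grey points for the 2 DMSO arrays, red points for the 2 CEP701 arrays, short bars at group means and a dotted line at the minimum of 60. VEGFA is lower with CEP701, the other 21 genes are higher, and SMAD7, ACVRL1 and PDE7B lie below the line on both DMSO arrays.

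Guanylate-binding proteins, GTPases that interferon induces and that attack intracellular microbes, rose at 4 of 10 genes (40%) in the list of interferon GTPases. GBP4 read 214 and 145 with DMSO and 1810 and 1929 with CEP701 (3.33 ± 0.29, adjusted p = 0.00165). GBP1 read 471 and 438 against 1727 and 1742 (1.91, adjusted p = 0.00475). GBP2 (1.55) and GBP5 (1.29) rose as well. The GBP genes are close relatives, and their probe sets can share signal. The lowest value of the list was ATL3, an atlastin, at -0.02, and the list's median lay 0.47 above that of all genes. Of 30 innate sensors and adaptors 4 rose: TLR6 (1.85), TLR1 (1.12), IFIH1, which senses double-stranded RNA (1.36), and STING1, which relays DNA sensing (0.80). IFIH1 read 320 and 348 against 922 and 827. TLR6 read 24.6 and 35.2 against 121 and 145, and TLR1 56.7 and 53.6 against 157 and 110. TLR6 and TLR1 lay below the minimum in DMSO, so the sizes of their changes are loose. TLR3 had a value as high as TLR6 (1.85) but did not pass (adjusted p = 0.1), and its DMSO arrays read 56.4 and 147. In the HLA class II list of 14, HLA-DMA (0.92) and CD74 (0.55) rose and every member had a positive value, from 0.05, while the list's own median of 0.35 turned to -0.14 under the poly-A scaling. The probe sets of CD74 ran from -0.27 to 1.93. In the class I list of 20, ERAP1 (1.23) and ERAP2 (1.26), which trim peptides, rose, and CALR fell as given above. ERAP2 read 47.8 and 32.8 with DMSO, below the minimum, against 106 and 112, and a probe set of ERAP1 stood at -0.07.

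Interferon regulatory factors are known to bind repeats of GAAA, searched as GAAA, a pair of any bases, and GAAA again. On either strand the letters stood in 25 of 468 promoters of genes that rose (5.34%), 2 of 267 of genes that fell (0.749%), 289 of the 10171 tested (2.84%) and 996 of all 27305 (3.65%). The forkhead spelling GTAAACA showed similar shares, in 4.70% of the promoters of rising genes, 0.749% of falling genes and 2.28% of those tested. Other spellings differed less between the groups: TTCNNNGAA, for STAT factors, stood in 6.41% of rising, 5.24% of falling and 6.30% of tested promoters, and the E-box CACGTG in 8.76%, 10.9% and 10.1%. TTTCCCGC or TTTGGCGC, for E2F, stood in 3.21%, 3.75% and 3.61%, and TGACNNNGC, for NRF2, in 13.5%, 17.2% and 15.5%. TCACGTGA, a lysosomal gene element that contains the E-box, stood in 1.71%, 1.12% and 1.93%, and CCAAT in 40%, 40.4% and 36.8%. The GAAA repeat is shown for 3 rising genes of the families described here, GBP1, IFIH1 and SLC7A7, that carry it before the start. The stretches are at chr1:89065286-89065375, chr2:162318794-162318883 and chr14:22819792-22819841, all on the minus strand, and are printed on the gene's strand, 5' to 3', with the match in capitals.
GBP1: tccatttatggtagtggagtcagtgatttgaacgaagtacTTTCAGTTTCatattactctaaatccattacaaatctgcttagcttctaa
IFIH1: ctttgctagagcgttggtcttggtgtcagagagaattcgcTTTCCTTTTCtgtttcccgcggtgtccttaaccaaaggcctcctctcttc
SLC7A7: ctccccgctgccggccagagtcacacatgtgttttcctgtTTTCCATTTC
In all 3 the repeat reads on the opposite strand, as TTTC on both sides of a pair of free bases.

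Secreted and oxidative genes moved singly. CSF1, the growth factor of macrophages, went from 432 and 446 to 1461 and 2072 (1.96, adjusted p = 0.0128). CXCL8, a neutrophil attractant (1.59), and IL16 (1.57) rose, and VEGFA fell from 935 and 801 to 274 and 306 (-1.55, adjusted p = 0.00888), although VEGFA probe sets ran up to 0.14. That is 3 rises and 1 fall among 28 cytokines. Among 35 oxidases and antioxidant enzymes 4 rose. DUOX2, which makes hydrogen peroxide, went from 1.94 and 10.9 to 501 and 565, and DUOXA2, which it needs to leave the endoplasmic reticulum, went from 11.4 and 6.85 to 129 and 115 (adjusted p = 0.00211 and 0.0337). Both were under the minimum on the DMSO arrays and above it on the CEP701 arrays. CAT, catalase, went from 11678 and 10701 to 24858 and 23241 (1.10), and TXNIP, which binds thioredoxin, from 3265 and 3551 to 7402 and 6769 (1.05). The median of the 35 nonetheless lay 0.11 below that of all genes. Of 39 lysosomal genes 5 rose, SGSH (1.94), TPP1 (1.03), CTSB (0.92), SCARB2 (0.83) and IDS (0.78), and 2 fell, ARSB (-1.09) and CTSC (-0.75). SGSH read 19.1 and 7.43 with DMSO, below the minimum, against 63.8 and 91.3, so the size of its change is loose. Probe sets of SCARB2 and TPP1 stood at -0.2 and -0.02. Of the 39, 25 were higher and 5 lower on both CEP701 arrays, against 4681 and 3435 of all 12487 genes. The median of the 39 lay 0.20 above that of all genes. Under the poly-A scaling the only calls were 3 lower genes, and the list's own median was -0.20. CTSB read 4276 and 4660 against 8843 and 8102, and its 5 probe sets gave 0.81 to 1.14. Of 19 proton pump subunits that acidify the same organelle, ATP6V0A1 rose (0.77) and ATP6V0B fell (-0.75).

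Histone and regulator genes closed the list of rises. Of 32 histone genes 6 rose (18.8%): H2BC5 (1.72), H2BC12 (1.28), H2BC12L (1.10), H2BC9 (0.98), H1-10 (0.98) and H2BC6 (0.94, named after its values were seen). Of these 6, 5 encode H2B and the other a linker histone. H2BC12 read 4109 and 4308 with DMSO and 10423 and 10024 with CEP701, and H2BC5 read 438 and 445 against 1452 and 1502. H2B genes are nearly identical in sequence, so these are not independent measurements. H2AC6 had the highest value (1.89, from 275 and 307 to 1112 and 1100) and did not pass (adjusted p = 0.0791). Limma on the 4 arrays alone gave H2AC6 an adjusted p of 4.8e-05. The histone median lay 0.39 above that of all genes, and its own value of 0.48 came to -0.02 under the poly-A scaling. Among chromatin enzymes KMT2E (1.09), KDM6A (0.99), KDM5B (0.86) and KMT5B (0.79) rose and SUV39H2 (-0.90) and SMYD2 (-0.82) fell, of 57. ARID5B, a partner of the demethylase PHF2, rose from 179 and 124 to 886 and 1019 (2.59 ± 0.38, adjusted p = 0.00961). Limma called 0 of 16 histone deacetylases and sirtuins, with 1 unadjusted p below 0.05. The fit on 4 arrays called 1 higher and 1 lower.

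Blood transcription factors gave another pair of relatives that moved apart. GFI1, a repressor of granulocyte and stem cells, went from 119 and 201 to 787 and 696 (2.19, adjusted p = 0.0232). GFI1B, its relative in red cells and megakaryocytes, went from 3273 and 3747 to 1453 and 1502 (-1.24 ± 0.15, adjusted p = 0.00475). Both probe sets of GFI1B were lower. The C/EBP factors CEBPG (-1.10), CEBPD (-1.07) and CEBPA (-0.89) fell, and 37 of the 42 factors did not pass. KLF3, a repressor in red cells, rose from 1440 and 1180 to 3049 and 3234 (1.26, adjusted p = 0.0103) and KLF6 rose by 1.05, though probe sets of KLF6 ran from -1.22 to 1.85. They are 2 of 12 Kruppel-like factors, whose median lay 0.44 above that of all genes. PBXIP1, which holds PBX factors in the cytoplasm (1.93), was the 1 call of 23 homeobox and cofactor genes (4.35%, against 7.16% of all genes called and 4.60% called higher). FOXN3 (1.18) and FOXP1 (1.04) were the 2 of 18 forkhead genes (11.1%), and a probe set of FOXN3 stood at -0.05. ESRRB (2.26) rose and NR2F6 (-0.73) fell of 24 nuclear receptors (8.33%). ESRRB, an orphan receptor, lay at 13.4 and 13.5 in DMSO and 93.9 and 111 with CEP701, below and just above the minimum.

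The largest family, 370 zinc finger genes of the ZNF series, which mostly bind DNA and repress, had 18 rises (4.86%) and 3 falls (0.811%). Those shares are near the 4.60% of all genes for rises and below the 2.56% for falls. ZNF438 had the largest rise that passed, from 39.1 and 49.0 to 183 and 198 (1.90, adjusted p = 0.0155), followed by ZNF311 (1.46), ZNF609 (1.29), ZNF185 (1.27) and ZNF789 (1.22). ZNF639 (-0.73), ZNF207 (-0.67) and ZNF664 (-0.59) fell by their brightest probe sets. Only 3 of 8 probe sets of ZNF207, 2 of 4 of ZNF664 and 2 of 3 of ZNF639 had that sign. The median of the 370 lay 0.17 above that of all genes. On both CEP701 arrays 173 of them were higher and 52 lower, against 4681 and 3435 of all 12487 genes. The calls were 4 higher and 6 lower under median scaling, 3 and 2 under quantile normalization and 1 and 9 under the poly-A scaling.

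Cytoskeletal and signalling families held calls in both directions. Among 50 actin regulators PLEKHO1 (-3.01), PLEK2 (-2.88), MARCKSL1 (-2.40) and CNN3 (-1.07) fell, and TPM1 (1.10), CNN2 (1.06), CORO1B (0.84) and ADD1 (0.82) rose. PLEKHO1 read 5.51 and 11.4 and PLEK2 11.8 and 12.4 with CEP701, under the minimum, so the added 10 sets much of their size. MARCKSL1, a membrane-bound actin regulator, read 1103 and 1072 with DMSO and 169 and 231 with CEP701, and TPM1, a tropomyosin, 2829 and 2837 against 6186 and 6021. The calponins CNN2 and CNN3 thus moved apart: CNN2 read 1014 and 932 against 2422 and 1720, and CNN3 read 2111 and 2359 against 1123 and 1001. Of 34 tyrosine phosphatases PTPN22 (0.87) and PTPN6 (0.64) rose and PTPRR (-3.12, at 5.34 and 3.84 with CEP701) and PTP4A2 (-0.51) fell. PTPN6, or SHP-1, which dampens cytokine receptors, read 3772 and 3968 against 5901 and 6207. Of 30 RAS regulators and RAS-like GTPases RRAS (1.17), RASAL3 (1.10) and SOS2 (0.96) rose and RASGRP2 (-1.17) and RAP1B (-0.56) fell. RASGRP2 activates RAP1 in platelets, and it read 1803 and 1928 against 877 and 771, while 1 of its 4 probe sets stood at 0.54. RAB3C (1.56), RAB40B (1.34), RAB13 (0.68) and RAB29 (-0.81) were the calls among 50 RAB genes (8.0%, against 7.16% of all genes). ANXA1, an anti-inflammatory annexin, rose from 4007 and 4155 to 9836 and 9356 (1.23, adjusted p = 0.00603), with S100A6 (0.98) and S100A11 (0.88), of 19 annexins and S100 proteins.

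Among the genes that passed with a mean of at least 200 in one group, the 15 largest rises and falls included several outside these families. AQP2, a water channel of the kidney, read 76.6 and 86.0 with DMSO and 536 and 494 with CEP701 (2.52 ± 0.26, adjusted p = 0.00272). SH2D2A, a T cell adaptor, read 339 and 371 against 2012 and 2120 (2.51), and PNRC1, a nuclear receptor co-activator, 199 and 283 against 1953 and 1802 (2.93). SMIM14, a small membrane protein, read 67.1 and 60.7 against 587 and 530 (2.94), and EMX2, a homeobox factor of the brain and kidney, 45.0 and 48.5 against 302 and 398 (2.65). ADGRG1, an adhesion receptor of stem cells, read 1441 and 1480 against 427 and 352 (-1.89), and KAZN, a junction protein, 948 and 883 against 217 and 229 (-1.99). MFSD2A, a lysophospholipid carrier, read 215 and 259 against 47.3 and 65.4 (-1.91). Separate groups were a condition of this choice. AQP2 is carried by 2 probe sets above the minimum, at 2.52 and 2.99.

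In 4 families besides those given above no gene passed. Limma called 0 of 17 integrins, 0 of 26 ABC transporters, 0 of 16 circadian clock genes and 0 of 11 members of the MYC, MAX and MXD network. At an unadjusted p below 0.05 these held 4 higher and 1 lower, 5 and 3, 2 and 3, and 1 and 1, and the fit on 4 arrays alone called 2 and 2, 5 and 3, 2 and 3, and 1 and 2. MYC itself read 18500 and 21670 with DMSO and 14140 and 16080 with CEP701, a log2 change of -0.41 (adjusted p = 0.511), and MYCN stood lowest of its network at -0.70 (adjusted p = 0.0955). The clock gene DBP was highest of its list at 1.33 (adjusted p = 0.0578) and CSNK1E lowest at -1.12 (adjusted p = 0.0508). As in the families above, the share of calls in other families is to be read against 7.16% of all genes, or 4.60% for rises and 2.56% for falls alone. Of 63 DNA repair genes (7.94% called) ATM, the break-sensing kinase, rose (0.88, with a probe set at -0.21). UNG (-1.03), CHEK2 (-0.97), MSH6 (-0.94) and RAD51C (-0.94) fell, and the median of the 63 lay 0.26 below that of all genes. BTG3 (-0.88) fell among 6 BTG and TOB genes (16.7%), PLXNC1 (1.28) rose among 28 semaphorins, plexins and ephrins (3.57%), CD53 (0.92) rose among 24 tetraspanins (4.17%), and DPEP2 (3.18) rose among 10 surface peptidases (10%). DPEP2 read 12.7 and 9.55 with DMSO against 183 and 179, so the added 10 sets the size of its change. In the matrix list of 38 (10.5%), THBS1 (4.18), PAPPA (4.03) and SRGN (0.61) rose and COL6A1 (-1.40) fell. PAPPA read 22.0 and 52.8 with DMSO, below the minimum, against 571 and 909. Of the 35 RGS and G protein genes RGS1 was the 1 that passed (1.07), just under the threshold.

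**Figure D4:**
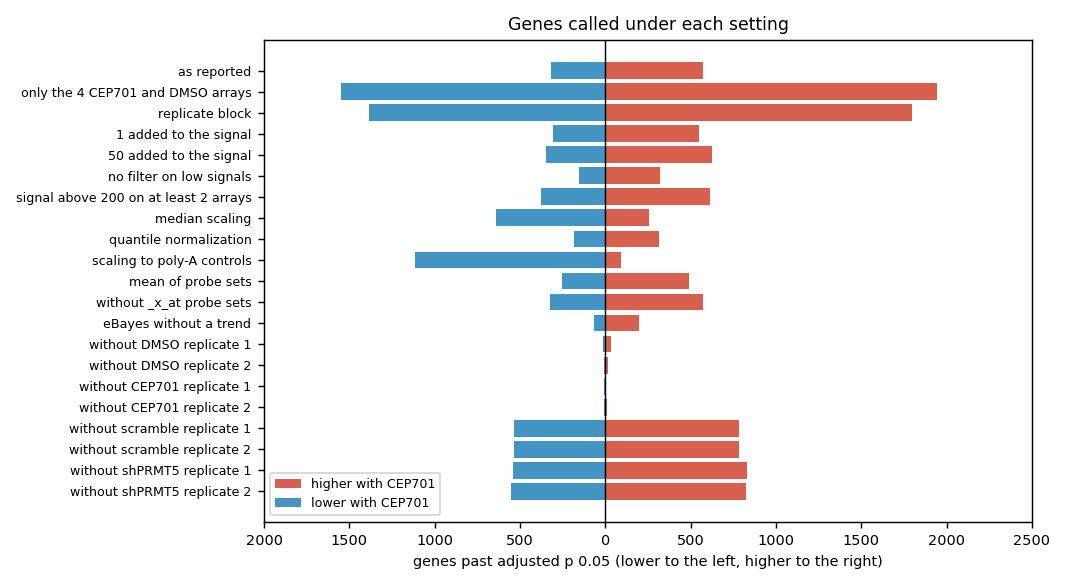
The number of genes past an adjusted p of 0.05 (x axis, lower genes to the left and higher genes to the right) is drawn as bars for the reported fit and for each of the 20 alternatives. Calls are far fewer without any one array of the drug arm, grow to 1944 higher and 1548 lower when only the 4 arrays of the arm are fitted, and turn mostly lower under median scaling (255 higher, 640 lower) and poly-A scaling (94 higher, 1116 lower).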

How the data were processed

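RNA of 8 HEL samples was hybridized to arrays of 54675 probe sets, of which 4 samples, CEP701 and DMSO, are compared here. The deposited values are linear signal intensities. Per the submitters' processing notes the authors used MAS5 and Affymetrix Expression Console, with versions not given in the sources used here. The trimmed mean was 500.1 on each array. Median signals were 51.5 and 49.4 with DMSO and 56.6 and 63.7 with CEP701. Detection calls were not used here.

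Of the probe sets 41097 name a single gene in the platform annotation, 1801 several and 11777 none, and 41043 symbols were updated through Entrez identifiers to RefSeq names (54 kept as given). Only probe sets naming a single gene were used, and 62 control probe sets were left out. Each gene was taken from its probe set of highest mean log2 signal on the 4 arrays. After 10 was added and log2 taken, the 4 groups on all 8 arrays were fitted in limma 3.58.1 (lmFit, eBayes with a trend; R 4.3.3; tables were read with data.table, release 1.17.8), with 4 residual and 5.30 prior degrees of freedom. Adjusted p-values are Benjamini-Hochberg values over 12487 genes. The calculation was tested on simulated data.

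Members and gene lists were chosen with earlier results of these data known, so their counts are descriptions. Named genes are JAK2 and FLT3, the 15 largest rises and falls with a group mean of at least 200 and groups that do not overlap, up to 5 called members of each list in each direction (or, with none called, 2 of lowest p), and each list's extremes. The 20 alternatives cover the arrays fitted, a replicate block, the added value, the filter, the scaling, the probe sets, the trend and leaving out each array. Promoter sequences are from RefSeq, GRCh38.p14, the first window listed for a gene.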

Additional observations from a re-analysis of the deposited data

How the results depend on the processing

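The counts of 574 higher and 320 lower genes depend on the processing. A fit of the 4 drug-arm arrays alone called 1944 higher and 1548 lower, no filter on low signals 323 and 155, median scaling 255 and 640, quantile normalization 316 and 185, scaling to the poly-A controls 94 and 1116, and eBayes without a trend 197 and 69. With each array of the series left out in turn the higher count ran from 1 to 831 and the lower count from 5 to 552. The CEP701 and DMSO arrays share only a replicate number: their deviations from the group means correlated at -0.0308 across genes. A replicate block had a term for replicate 2 of the drug arm and another for replicate 2 of the shRNA arrays. It gave 1800 higher and 1388 lower, with all 574 and 320 of the reported calls among them. The part of each term in those counts was not tested. Adding 1 or 50, a minimum of 200, means of probe sets and leaving out _x_at probe sets left both counts within 1.5 times. Directions reversed for EIF4B under the poly-A scaling (-0.01) and, with means of probe sets, for ZNF207 (0.11) and ZNF664 (0.03). The cause was not tested. Signals under 60 are poorly measured and bound no fold.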

Other observations

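Several genes with large changes had other levels on the 4 shRNA arrays, which come from lentivirally modified HEL cells and were not compared with the drug arm. GJA1, at 1414 and 1157 with DMSO, read 5.42 and 2.25 with the scramble shRNA and 2.50 and 3.21 with the PRMT5 shRNA. EMX2, at 302 and 398 with CEP701, read 1.72 to 7.51 on those 4 arrays. CD24, at 4412 and 4780 with DMSO, read 78.8 to 225 there, and ID1, at 5396 and 4838, read 102 to 177. In the other direction TP53INP1, at 55.4 and 32.8 with DMSO and 551 and 408 with CEP701, read 2966 to 5068, and PNRC1, at 199 and 283 with DMSO, read 4055 to 8699. DUOX2, AQP2 and GBP4 stayed low there, at 16.5 to 59.8, 98.8 to 153 and 127 to 270. Others were near their DMSO levels: ETV5, at 1050 and 1135 with DMSO, read 711 to 1303 there, PIM1, at 3358 and 3552, read 2515 to 4812, and RDH10, at 733 and 723, read 468 to 826.

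Of the tested genes 383 were above 60 on both CEP701 arrays and on neither DMSO array, of which 47 passed, and 106 showed the reverse, of which 7 passed.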
